A study of Homo sapiens with 14 samples.

Results

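The imprinted domain of 15q11-q13 was taken as chr15:23400000-28400000 (GRCh38), from the MAGEL2 and NDN cluster over SNRPN, the snoRNA host transcript SNHG14 and UBE3A to OCA2 and HERC2. Its members were all R-loop peaks lying wholly inside these bounds in the 8 peak lists of Nalm-6 cells, 2076 of 1318662 peaks, which merged into 764 separate regions. The interval was chosen by position and not by any measured value. Nalm-6 is a human pre-B leukemia cell line, here in an isogenic pair carrying SF3B1 K700E, a mutation of a core splicing factor, or SF3B1 K700K, the wild-type protein. DNA of each genotype was cut with restriction enzymes, left untreated (UNT) or digested with RNase H, labelled RNH1, which removes the RNA of DNA:RNA hybrids, and precipitated with the S9.6 antibody against such hybrids (DRIP-seq). There were 2 libraries in each of the 4 combinations of genotype and treatment. The labels do not say whether replicates came from separate cultures, so p-values measure the spread between these libraries, and each genotype may stand for a single edited line.

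Genes of this domain differ in which parental copy they use. MKRN3, MAGEL2, NDN, NPAP1, SNURF and SNRPN, with the long noncoding SNHG14 and the SNORD116 and SNORD115 snoRNA clusters within it, are transcribed from the paternal copy, under an imprinting center at the CpG-rich SNURF-SNRPN promoter. UBE3A, an E3 ubiquitin ligase, is maternally expressed in neurons, where the far end of SNHG14 runs antisense to it, while in most other cells both copies are used. Loss of the paternal genes causes Prader-Willi syndrome and loss of maternal UBE3A causes Angelman syndrome. An R-loop is a DNA:RNA hybrid with a displaced DNA strand, formed behind transcription, and R-loops have been described over this paternal transcript. A DRIP-seq peak carries neither strand nor parental origin, so overlapping transcripts such as SNHG14 and UBE3A cannot be told apart here.

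The stretches of DNA that the results turn on are printed first, all from the plus strand of GRCh38. The SNRPN amplicon of the study's DRIP-qPCR primers lies in an SNRPN intron at chr15:24887786-24887888, is 103 bp long with 57.3% GC, and is shown with its primers in capitals.
SNRPN amplicon: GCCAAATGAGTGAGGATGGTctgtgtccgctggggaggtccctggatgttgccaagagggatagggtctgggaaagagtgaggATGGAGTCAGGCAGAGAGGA
The 198 bases before the first annotated start of the SNURF-SNRPN promoter, chr15:24954737-24954934 (RefSeq, GRCh38.p14), have 62.6% GC and hold 8 CG pairs, shown in capitals. No list had a peak here.
SNURF-SNRPN promoter: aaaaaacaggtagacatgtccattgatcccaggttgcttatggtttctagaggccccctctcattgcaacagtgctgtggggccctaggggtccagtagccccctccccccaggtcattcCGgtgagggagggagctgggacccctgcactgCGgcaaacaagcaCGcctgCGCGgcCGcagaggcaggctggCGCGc
In the other 2 stretches, of 300 bases each, capitals mark sites of the restriction enzymes used. An intronic stretch of UBE3A, chr15:25437192-25437491, carried the highest peak near the UBE3A start and ended at an SspI site.
UBE3A: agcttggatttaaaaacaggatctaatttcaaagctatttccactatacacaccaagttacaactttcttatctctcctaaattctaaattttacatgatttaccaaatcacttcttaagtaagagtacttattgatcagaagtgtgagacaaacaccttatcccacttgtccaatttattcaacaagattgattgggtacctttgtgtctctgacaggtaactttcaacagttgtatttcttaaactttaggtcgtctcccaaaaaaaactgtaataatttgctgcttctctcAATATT
In HERC2, chr15:28137725-28138024 carried the strongest of the regions that were bona fide in both K700E libraries and had no untreated K700K peak, and also ended at an SspI site.
HERC2: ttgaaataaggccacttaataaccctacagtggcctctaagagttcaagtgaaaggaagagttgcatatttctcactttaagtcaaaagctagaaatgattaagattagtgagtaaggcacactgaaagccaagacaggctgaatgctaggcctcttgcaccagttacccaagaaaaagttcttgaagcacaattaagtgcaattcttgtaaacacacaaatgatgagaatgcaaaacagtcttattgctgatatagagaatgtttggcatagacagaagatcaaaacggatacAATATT

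In untreated libraries the interval held 203 and 221 peaks in K700K and 397 and 465 peaks in K700E cells (replicates 1 and 2). After RNH1 treatment it held 50 and 123 peaks in K700K and 316 and 301 peaks in K700E cells. Both K700E libraries thus had more peaks than both K700K libraries with either treatment, and K700K RNH1 replicate 1 had the fewest of all. The untreated lists differed 2.03-fold (log2 ratio 1.02, two-sided exact permutation p = 0.333, the smallest that 2 against 2 libraries allow), and the RNH1 lists 3.93-fold (log2 ratio 1.98, exact permutation p = 0.333). The latter log2 ratio was 1.33 without K700K replicate 1 and 2.62 without K700K replicate 2, and turned to -0.20 with the same number of peaks per RNH1 library. RNH1 treatment lowered the count in each of the 4 pairs, 1.94-fold on average (log2 ratio -0.96, exact sign-flip permutation p = 0.125, again the smallest possible), while the same 8 libraries taken as unpaired groups gave an exact permutation p = 0.257.

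The whole lists differed in the same way, and the interval's share of them hardly moved. The 8 lists ran from 34952 peaks in K700K RNH1 replicate 1 to 296533 in untreated K700E replicate 2, and the interval held 0.164 and 0.169% of the untreated K700K peaks against 0.156 and 0.157% of the untreated K700E peaks, beside 0.170% of the genome's bases. Its density was 40.6 and 44.2 peaks per Mb in K700K and 79.4 and 93.0 peaks per Mb in K700E, or between 0.918 and 0.990 times that of the genome. The difference in share was -0.00983 percentage points (exact permutation p = 0.333). The lists give no read totals, but the lowest background recovered from them, from 1.62 to 4.35 fragments under a summit, was larger in the untreated K700E lists (3.51 and 4.35) than in the untreated K700K lists (2.99 and 3.13). Within each of the 4 pairs the background was lower in the RNH1 list. It was 1.62 and 2.17 in K700K RNH1 and 2.76 and 2.55 in K700E RNH1. The part of these differences in depth in the peak counts, and in the ratios between treatments and genotypes, was not tested. With the same number of best peaks taken from every untreated library, 203 and 209 K700K peaks stood against 188 and 199 K700E peaks, and the log2 ratio turned to -0.09.

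Untreated peaks that overlapped no RNH1 peak from the matching genotype and replicate number are called bona fide. In the interval 170 and 150 peaks of K700K and 209 and 257 peaks of K700E were bona fide, 1.45-fold more in K700E (log2 ratio 0.54, exact permutation p = 0.333, turning to -0.16 with the same number of peaks per library). RNH1 subtraction removed 16.3 and 32.1% of the untreated K700K peaks and 47.4 and 44.7% of the untreated K700E peaks, a difference of 21.9 percentage points (exact permutation p = 0.333). In the whole lists it removed 18.1 and 34.2% in K700K and 50.9 and 48.8% in K700E. The 2 genotypes did not overlap in this share, but with all 4 RNH1 libraries pooled for the subtraction the difference was 4.11 points, and with the same number of peaks per library 3.81 points. It was 13.9 points without K700K replicate 1 and 29.8 points without K700K replicate 2. The part of the lower background of the K700K RNH1 lists in this difference was not tested. Among the untreated peaks that were still listed after RNH1 treatment, the median log2 ratio of RNH1 over untreated fold enrichment was -0.06 and 0.04 in K700K and 0.22 and 0.07 in K700E, and 39.4 and 53.5% of these peaks in K700K and 69.7 and 54.8% in K700E were higher after treatment. These values rest on 33 and 71 peaks in K700K and 188 and 208 in K700E. In the whole lists the medians were 0.04 and 0.05 in K700K and 0.17 and 0.10 in K700E. There, 53.1 and 54.2% of such peaks in K700K and 63.4 and 58.4% in K700E were higher after treatment. Peaks that fell below the calling threshold do not enter these values. Fold enrichment is the fragment pileup at a peak summit over its local background, and its median over untreated interval peaks lay between 4.20 and 4.37 in all 4 libraries, with groups that overlapped (exact permutation p = 1).

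**Figure D1:**
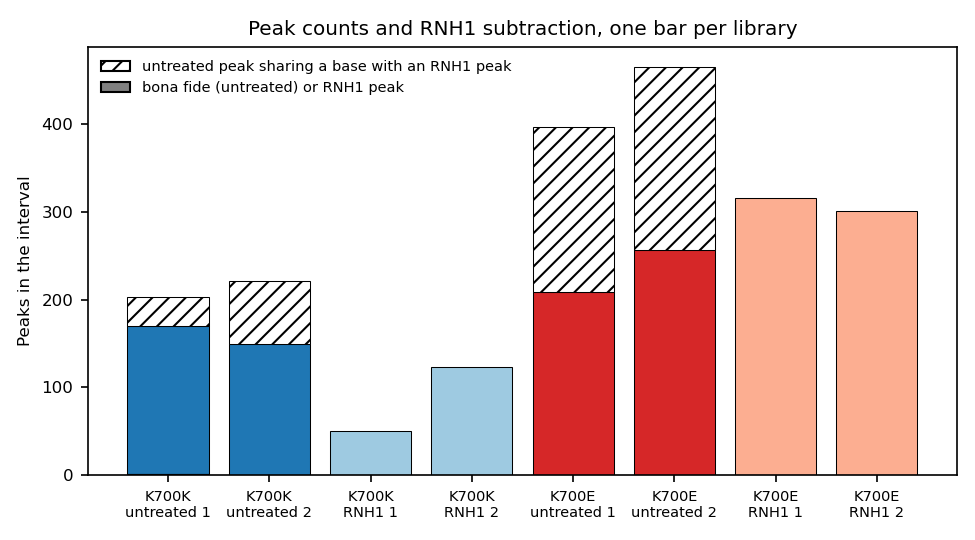
Peaks of the interval in each of the 8 libraries, on a linear axis. Solid bars are bona fide peaks (untreated) or all peaks (RNH1), and hatched parts are untreated peaks sharing a base with an RNH1 peak, 16.3 and 32.1% of K700K and 47.4 and 44.7% of K700E.

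Peaks were spread over the whole domain, and SNRPN was the segment in which the genotypes stood furthest apart. The interval was divided at gene bounds into 7 segments, and each untreated count was compared with the density of its own whole list. The SNRPN segment, 0.155 Mb from the upstream SNRPN start to SNHG14, held 4 and 4 K700K peaks and 17 and 22 K700E peaks. That is 0.613 and 0.578 times the genome's density in K700K and 1.27 and 1.41 times in K700E. The log2 ratio was 2.27 (4.83-fold, exact permutation p = 0.333), and in the other 6 segments it lay between 0.58 and 1.26. Among 17562 stretches of the genome of the same length with a peak in all 4 lists, 5.04% had a ratio at least as high, and the median log2 ratio was 1.13. With the same number of peaks taken from every untreated library the segment held 4 and 4 K700K and 10 and 9 K700E peaks. This segment was singled out after the values were seen.

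**Figure D2:**
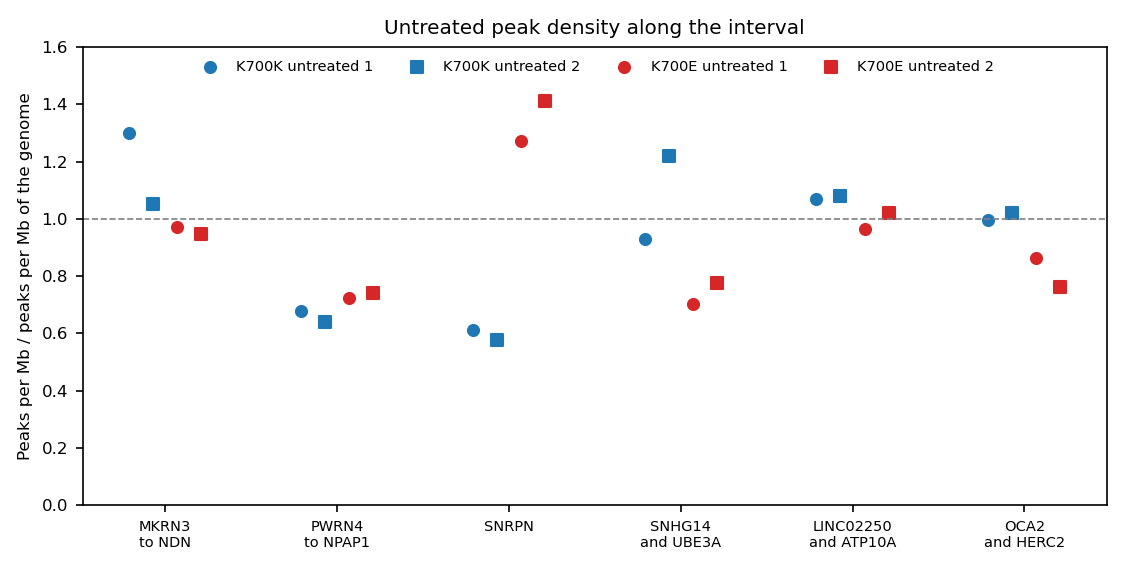
Untreated peaks per Mb in 6 of the 7 segments of the interval, divided by the peaks per Mb of the same library's whole list (dashed line at 1), with 1 point per library. In the SNRPN segment the K700E points lie at 1.27 and 1.41 and the K700K points at 0.613 and 0.578.

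SNRPN encodes SmN, a protein of the spliceosomal Sm core, and SNURF is read from the same transcript. Over all 8 lists the SNRPN segment held 28 regions, of which 20 were listed in K700E alone, 3 in K700K alone and 5 in both. In the neighbouring segment of SNHG14 and UBE3A, 30 of 59 regions were in K700E alone, 13 in K700K alone and 16 in both. The K700E lists were longer with either treatment, and no genome share stands beside these counts. At the upstream SNRPN start, chr15:24823321-24824369 had peaks in all 4 K700E lists, with fold enrichments of 5.52 and 4.71 untreated and 3.19 and 4.44 after RNH1 treatment, and none in a K700K list. The strongest SNRPN region, at chr15:24920197-24921077 over an SNRPN exon, likewise appeared in K700E lists alone, at 9.96 and 10.2 untreated and 6.92 and 6.46 after RNH1 treatment. Near the shared 3′ exons of SNURF and SNRPN, K700K had a bona fide region at chr15:24974100-24975240, with fold enrichments of 4.12 and 4.61. Just downstream, K700E had a region at chr15:24975354-24975753, with 6.32 and 6.11 untreated and 6.79 and 6.07 after RNH1 treatment, which was therefore not bona fide. The 2 genotypes were thus listed at neighbouring but separate stretches of the same gene end.

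The SNURF-SNRPN promoter, whose sequence is given above, had no peak within 500 bp of its start in any list. The nearest peaks lay 1247 bp upstream of the SNURF start, in both untreated K700E libraries (fold enrichments 3.54 and 3.63, with 15 and 19 fragments at the summit), and downstream at chr15:24957052-24957463 in untreated K700E replicate 2 (4.56). All 3 were bona fide. At the qPCR amplicon, untreated K700E replicate 2 had a peak, chr15:24887629-24888032, with a fold enrichment of 5.09 from 28 fragments and no RNH1 peak at its place. The other 7 lists had none there, so the amplicon was called in 1 of 2 untreated K700E libraries and the difference from K700K is within the spread between replicates. In the paper SNRPN served as the negative control locus of DRIP-qPCR in mitotic cells. A peak call and a qPCR signal are unlike measures and were not compared here. Upstream of the amplicon, a region over an SNRPN exon, chr15:24886127-24886851, was listed in both untreated K700E libraries (6.42 and 4.86), untreated K700K replicate 2 (3.39) and K700E RNH1 replicate 2 (3.10).

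Few protein-coding starts of the interval had a peak nearby, at a share close to that of the genome. Of 13 protein-coding starts of the interval, 2 had a peak within 500 bp in any list, or 15.4%, beside 11.7% of all protein-coding starts. The upstream SNRPN start, described above, was among them, and both had their peaks in K700E lists alone. Over all protein-coding starts, 6.78 and 6.89% had a peak in untreated K700E lists and 2.08 and 2.45% in untreated K700K lists. After RNH1 treatment the shares were 3.42 and 3.25% in K700E and 0.594 and 1.51% in K700K. At 8 of the 13 starts the CpG ratio, the observed over the expected number of CG pairs, was above 0.6, and none of these 8 had a peak. No genome share of CpG-rich starts stands beside this, and 8 starts are too few to tell it from 11.7%. MAGEL2, a partner of ubiquitin ligases, had no peak in any list over its body and 3 kb to each side. NDN, which encodes necdin, a growth suppressor, had 1 bona fide peak in each untreated K700E library (3.99 and 3.36) and none elsewhere. MKRN3, a brake on puberty onset, had 4 and 3 untreated K700K peaks, none after RNH1 treatment, and 7 and 8 untreated K700E peaks, of which 7 and 6 were bona fide, with 2 and 4 peaks after RNH1 treatment.

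SNHG14, which carries the snoRNAs in its introns, showed a different balance along its length. The segment from the SNHG14 start to the end of UBE3A, 0.460 Mb, held 18 and 25 untreated K700K peaks and 28 and 36 untreated K700E peaks. RNH1 subtraction removed 11.1 and 36.0% of these in K700K and 71.4 and 55.6% in K700E, which left 16 and 16 bona fide peaks in K700K and 8 and 16 in K700E. It was the only one of the 7 segments in which bona fide peaks were on average fewer in K700E (log2 ratio -0.50, with counts that tie between the genotypes). Just downstream of SNRPN, at PWAR5 and SNORD108, K700K had a pair of peaks that no K700E list had. The first, chr15:24986331-24986673, reached 5.95 and 8.04 untreated and 3.78 in K700K RNH1 replicate 2. The second, chr15:24987003-24987364, reached 7.65 and 5.18 and was bona fide in both K700K libraries. SNORD108, a C/D box snoRNA gene, lies between both peaks. PWAR5, PWARSN, SNORD64 and SNORD108 were the 4 listed loci with more peaks in both K700K than in both K700E libraries, and their windows share these peaks.

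The large snoRNA clusters held few peaks. SNORD116, whose loss is the core of Prader-Willi syndrome, spans 56.9 kb with 30 annotated copies, and had 1 and 0 untreated K700K peaks, 1 and 1 untreated K700E peaks and none after RNH1 treatment. The peaks lay at 3 different places and reached at most 3.77. SNORD115, which spans 99.1 kb with 48 copies, had no K700K peak and 2 peaks in each of the 4 K700E lists, at most 6.28. Its interior was the longest stretch of the interval without a peak in any list: chr15:25163046-25254170, 91.1 kb with 44 SNORD115 copies, against a median gap of 3.65 kb. Of all gaps between regions in the genome 0.0881%, or 423 of 480297, were as long. This gap was picked as the longest of 763 in the interval, so that share does not measure how unusual it is. This stretch had 56.8% GC against 41.5% in the interval and 0.472 cut sites per kb against 1.84, and 9.26% of its 32-base words had another copy in the genome. The part of cut-site spacing and GC in this gap was not tested.

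Between both clusters, chr15:25148218-25150337 in SNHG14 had a peak in all 8 lists. Its fold enrichment was 5.36 and 5.82 in untreated K700K, 8.41 and 8.66 in K700K RNH1, 5.76 and 7.87 in untreated K700E, and 11.1 and 9.88 in K700E RNH1. It was higher after RNH1 treatment in all 4 pairs. The IPW window, another noncoding gene of the domain, showed 3 bona fide peaks in untreated K700K replicate 2 and none in replicate 1, whose peak in the region chr15:25113025-25115177 (5.69, beside 5.57 in replicate 2) fell outside the window's 3 kb flank. It showed 1 peak in each K700E list (6.07 and 6.73 untreated, 9.43 and 7.99 after RNH1 treatment), and neither untreated one was bona fide.

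At UBE3A the strongest peak was listed in K700K and absent from K700E. The region chr15:25437173-25437488, in a UBE3A intron 841 bp from the nearest annotated UBE3A start and 1563 bp from the outermost, had fold enrichments of 10.1 and 9.25 in untreated K700K, from 41 fragments at the summit in each. It was bona fide in both, and neither a K700K RNH1 list nor any K700E list had a peak at its place. On the other side of the start, untreated K700E replicate 2 alone had a weak peak at chr15:25441046-25441340 (2.99). The right edge of the K700K region fell on the SspI site printed above, and none of its 32-base words had another copy in the genome. Over the whole gene and 3 kb to each side, UBE3A had 6 and 6 untreated K700K peaks and 11 and 13 untreated K700E peaks, of which 5 and 4 and 2 and 5 were bona fide. A region over the antisense end of SNHG14, chr15:25413533-25415409, was in all 8 lists, at 4.94 and 5.17 in untreated K700K, 4.79 and 5.58 in K700K RNH1, 5.61 and 5.33 in untreated K700E, and 8.88 and 8.90 in K700E RNH1. Peaks over UBE3A were thus more numerous in K700E, whereas the strongest untreated one was in the K700K lists.

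Distal to UBE3A, ATP10A, a phospholipid flippase gene, had 6 and 9 untreated K700K and 11 and 13 untreated K700E peaks. GABRG3, which encodes a GABA-A receptor subunit, had 31 and 37 against 62 and 67. PWRN1, a noncoding gene before SNRPN, had 20 and 20 against 41 and 49. OCA2, a melanosomal transporter gene, had 19 and 23 against 25 and 30, and HERC2, a ubiquitin ligase gene, 3 and 5 against 15 and 14. Such receptors are best known from neurons, and no expression data of Nalm-6 cells entered here. Of 31 listed loci, 26 had a peak in some list, 17 had more peaks in both untreated K700E libraries than in both K700K libraries and 4 the reverse. Among all annotated genes the shares were 37.2% and 2.55%. Many loci overlap and share peaks, so the 17 and 4 are not independent. Of the 24 loci classed as paternal 10 had more peaks in K700E and 4 fewer. Both loci classed as maternal (UBE3A and ATP10A) and all 5 classed as biallelic had more. The classes were assigned by locus, and allele use in Nalm-6 cells was not measured. Many paternal loci are short, such as PWAR5 (3.18 kb) and SNORD108 (0.0710 kb), beside UBE3A (105 kb), ATP10A (188 kb) and GABRG3 (571 kb). Short loci hold few peaks or none, so imprinting class and length cannot be told apart in these counts. Without the 3 kb flanks the counts over all 31 loci were 15 and 1.

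**Figure D3:**
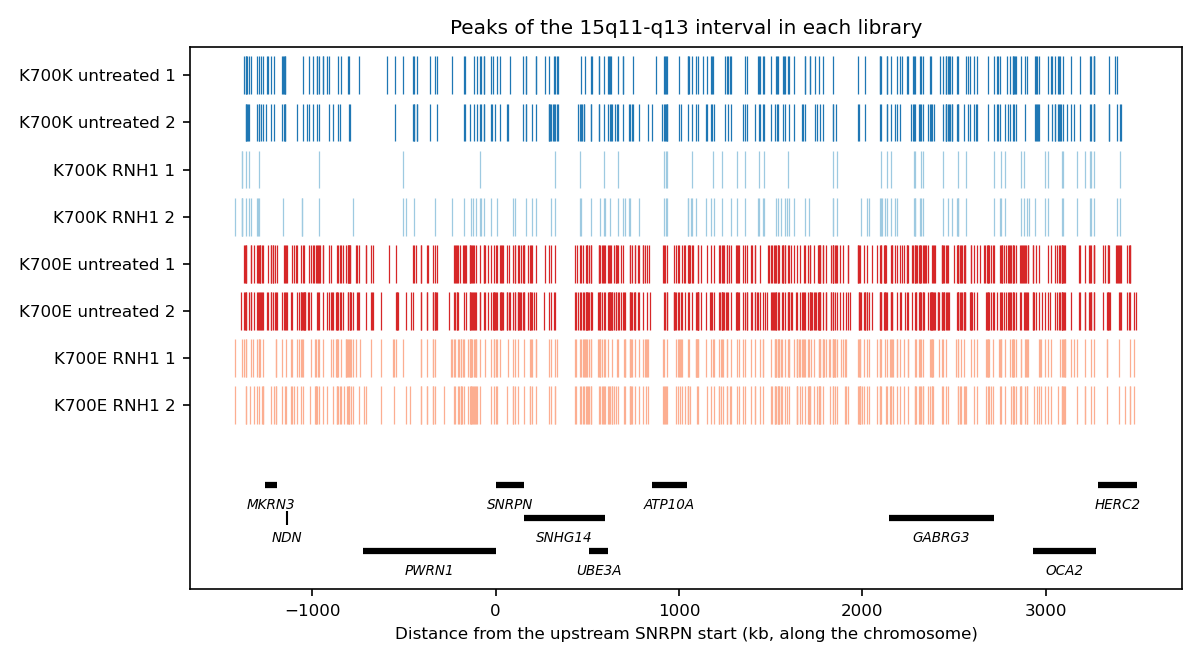
Position of every peak of the interval (vertical ticks, at peak midpoints) in each of the 8 libraries, against the distance in kb from the upstream SNRPN start, with gene spans as black bars. The K700E rows are denser, and no row has a tick in the 91.1 kb over most of SNORD115, within SNHG14.

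Untreated peaks recurred between replicates more than between genotypes. Of the untreated peaks of the interval, 66.1 to 79.8% shared a base with a peak of the other replicate of the same genotype, and 21.7 to 50.2% with a peak of the other genotype. In the whole lists the ranges were 66.7 to 81.1% and 21.8 to 52.4%. RNH1 libraries did not follow this order: their interval peaks overlapped the other replicate's in 39.0 to 96.0% and the other genotype's in 10.8 to 68.0%. K700K RNH1 replicate 2 shared 39.0% with its own replicate but 58.5 and 56.1% with the K700E RNH1 libraries. In the whole lists these shares were 36.7%, 60.0% and 58.4%. Such shares depend on list length. K700K RNH1 replicate 1 held 50 interval peaks, replicate 2 held 123, and the K700E RNH1 lists held 316 and 301. Of the 50 peaks, 96.0% were shared with replicate 2, so the 39.0% does not show poorer agreement between the K700K RNH1 replicates. Among the 667 regions merged over the 4 untreated lists, 88 were found only in K700E, that is bona fide in both K700E libraries with no untreated K700K peak, or 13.2% beside 12.5% in the genome. Another 39 were found only in K700K, 5.85% beside 5.48%. Bona fide in all 4 untreated libraries were 13 regions, 1.95% beside 1.78%, and 81 regions had peaks in all 4 K700E lists, RNH1 included, and no untreated K700K peak, 12.1% beside 14.2%. These shares were near those of the genome. With the same number of peaks per untreated library the counts of regions found only in K700E and only in K700K were 58 and 71.

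The strongest regions of each kind were as follows. Only in K700E, the HERC2 region chr15:28137706-28138021 reached 9.53 and 10.5, and an intergenic region beyond GABRG3, chr15:27608294-27609250, held 45 and 65 fragments at its summit. A PWRN4 intron, chr15:23990505-23991305, reached 8.71 and 8.97. In the HERC2 region 28.8% of 32-base words had another copy, so that reads from duplicated sequence may be shared there. Only in K700K, besides UBE3A, an intergenic region at chr15:26328008-26328614 held 53 fragments at its summit in each library, and an intron of the noncoding LINC02250, chr15:25572326-25573325, reached 8.51 and 8.22. Bona fide in all 4 libraries, an OCA2 intron at chr15:27773485-27774661 reached 6.20 and 5.33 in K700K and 6.52 and 6.12 in K700E. An intergenic region at chr15:26192013-26193163 reached 4.01 and 3.88 in K700K and 7.45 and 7.29 in K700E, and one beside LINC02248, chr15:26392953-26394550, reached 4.25 and 6.56 in K700K and 4.23 and 4.65 in K700E.

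Regions that kept their peaks after RNH1 treatment included the highest of the interval. The intergenic region chr15:23714931-23715303, 27626 bp from the nearest annotated start (NDN), had fold enrichments of 6.65 and 9.16 in untreated K700E and 19.5 and 18.5 in K700E RNH1. No K700K list had a peak there. Its summit held 29 and 48 fragments untreated and 104 and 86 after RNH1 treatment. Of its 32-base words 85.1% had another copy in the genome, with a median of 135 copies. No repeat annotation was used, and reads of such a stretch can come from many places. In K700E alone, a LINC02346 intron at chr15:26043965-26044331 reached 9.27 and 9.66 untreated and 13.3 and 11.8 after RNH1 treatment. An ATP10A intron at chr15:25819097-25819490 reached 8.64 and 12.1 untreated and 12.8 and 10.1 after RNH1 treatment. Another 105 of the 764 regions were listed after RNH1 treatment alone, 13.7% beside 14.5% in the genome. Among the highest were chr15:27792197-27792483 in OCA2 (8.25 in K700E RNH1 replicate 1) and the intergenic chr15:26378867-26379359 (6.66 and 7.32 in K700E RNH1).

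A small set of regions was present throughout. Of the 764 regions, 246 were in a single list, or 32.2% beside 33.0% in the genome. Another 19, or 2.49% beside 2.20% in the genome, were in all 8. Of these 19, 16 lay in genes, 4 of them in GABRG3 and 4 in OCA2. GABRG3 (571 kb) and OCA2 (344 kb) are long, and no share over all regions stands beside these counts, so they are not read as a result. Among the strongest, the intergenic chr15:23861327-23861886 stood at 6.81 and 5.51 in untreated K700K and 10.6 and 14.5 in untreated K700E, and a PWRN1 intron, chr15:24736666-24737039, at 8.20 and 9.84 against 12.0 and 11.9. In untreated libraries 8 of the 19 were higher in both K700E than in both K700K libraries, or 42.1% beside 41.1% in the genome, 5 were lower, beside 30.1% in the genome, and 6 overlapped. The clearest of the latter direction was an OCA2 intron at chr15:28070811-28071725, chosen after its values were seen, with 6.51 and 6.20 in K700K and 3.26 and 4.37 in K700E.

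**Figure D4:**
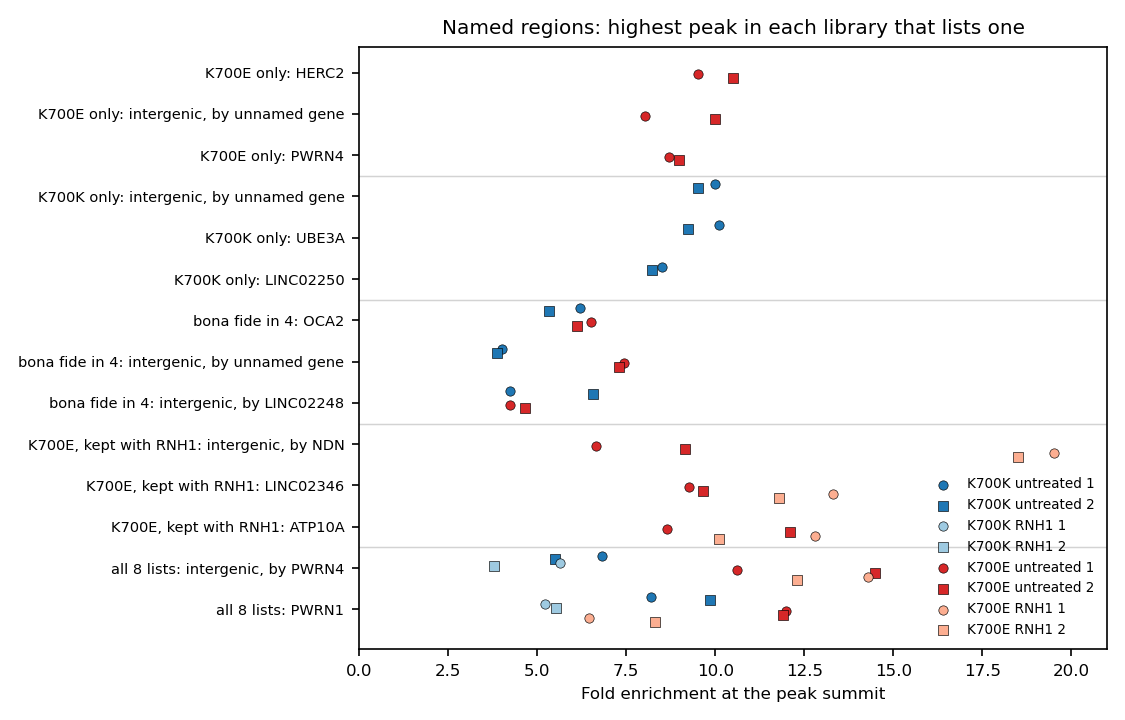
Fold enrichment at the highest peak of 14 named regions (rows, grouped by kind) in every library that lists one, on a linear axis, with circles for replicate 1 and squares for replicate 2. The region beyond NDN reaches 19.5 and 18.5 in K700E RNH1, and regions only in K700K, such as that in UBE3A at 10.1 and 9.25, have no K700E point.

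The base composition of the peaks separated the genotypes without overlap. Untreated interval peaks had a mean GC of 37.4 and 37.4% in K700K and 42.1 and 41.5% in K700E, a difference of 4.38 percentage points (exact permutation p = 0.333), beside 41.5% for the interval itself. After RNH1 treatment the values were 39.5 and 39.7% in K700K and 41.4 and 40.5% in K700E. Peaks under 30% GC made up 9.36 and 9.50% of the untreated K700K peaks and 1.01 and 0.860% of the untreated K700E peaks. The whole lists had 37.5 and 38.0% GC in K700K and 41.9 and 41.4% in K700E, so the difference was not particular to this domain. With the same number of peaks per untreated library it was 3.6 points.

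Repeated sequence moved with RNH1 treatment and genotype. On average 8.58 and 8.06% of the 32-base words of untreated K700K peaks had another copy in the genome, 12.8 and 13.1% in untreated K700E, 11.9 and 12.0% in K700K RNH1 and 18.9 and 19% in K700E RNH1, against 16.4% of the interval. In untreated K700E libraries, bona fide peaks had 10.3 and 10.2% and those with an RNH1 peak at their place 15.5 and 16.8%. In untreated K700K libraries the values were 8.23 and 7.47% against 10.4 and 9.31%. The rise from bona fide peaks to those also listed after RNH1 treatment was thus seen in all 4 untreated libraries. Regions listed after RNH1 treatment alone had the most, 23.7%, and the 19 regions in all 8 lists had 7.31%. The part of shared reads in these peaks was not tested.

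**Figure D5:**
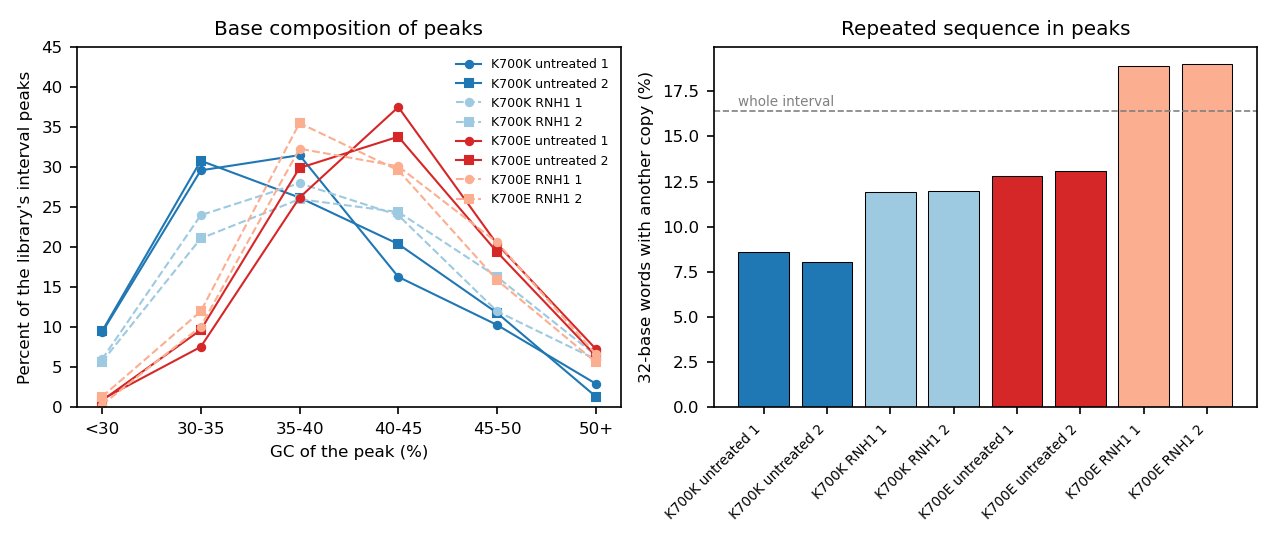
Left, percent of each library's interval peaks in 6 classes of GC content, with solid lines for untreated and dashed lines for RNH1 libraries. Right, mean percent of 32-base words of interval peaks with another copy in the genome, 1 bar per library, against 16.4% for the whole interval (dashed line); K700E RNH1 bars reach 18.9 and 19%.

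Peak edges followed the restriction digest in all libraries. The interval holds 9206 sites of the 5 enzymes, a median of 341 bp apart, and 2.01% of its bases lie within 5 bp of one. Of the peak edges, 27.3 and 27.1% in untreated K700K, 27.2 and 27.2% in untreated K700E, 25.0 and 25.6% in K700K RNH1 and 25.5 and 25.1% in K700E RNH1 did. Both edges lay at a site in 3.45 and 5.43% of untreated K700K peaks and 1.26 and 1.51% of untreated K700E peaks. The UBE3A and HERC2 stretches printed above each end at such a site, and the region beyond NDN starts 2 bp from one.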

How the data were processed

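DRIP-seq peak lists of 8 Nalm-6 libraries were analysed; the RNA-Seq of HEK293T cells in the same series was not used here. Per the study's methods, the authors used BWA-MEM for alignment (GRCh38), discarded PCR duplicates and mitochondrial alignments, and ran MACS2 on each library. The MACS2 setting named there is for read pairs, while the same methods describe single reads and a modelled fragment size, so a fragment here is a unit of MACS2 pileup, from pairs or extended reads. Each deposited list carries fold enrichment, a ratio over local background, plus the −log10 p-value and −log10 q-value of the authors' peak caller. Methods state a q of 0.05, but no deposited peak had a q above 0.01. The lists hold no read counts per sample over shared regions, so differential peaks were not tested on reads. Summit pileup k and background λ were recovered from fold enrichment, (k + 1)/(λ + 1), and the Poisson p-value, within 0.001 of −log10 p for 100% of interval peaks. Depth was judged by the background, and counts of fragments carry counting error.

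The 1766 peaks on unplaced or unlocalized contigs were left out. Bona fide peaks overlapped no peak of the matching RNH1 list. The 31 loci were chosen by position and imprinting class, placed with GENCODE 44 or, for 5, RefSeq, with 3 kb on each side. Named regions were the 3 of highest mean fold enrichment in each class (1 gene and the regions in it are not reported here), plus peaks within 3 kb of SNRPN starts, the UBE3A start and the amplicon; the K700E regions kept after RNH1 treatment, the other SNRPN regions and those in SNHG14 were chosen after their values were seen. Starts, overlaps and words were computed with Python 3.11.15, pandas 2.3.3 and numpy 2.4.6 on the GRCh38 sequence, checked on simulated data. Genotypes (2 libraries each) were set against each other in exact permutation tests, two-sided. Alternatives were a fold enrichment of at least 4, −log10 q of at least 3, equal peak numbers, other subtractions, other memberships, a replicate block and leaving out libraries. Same-numbered libraries did not deviate together over bins of 1 Mb (correlations of -0.05 to 0.08). The members and lists were chosen with earlier results of these data known.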

Additional observations from a re-analysis of the deposited data

Results flagged for a closer look

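Of the 19 regions in all 8 lists, 3 changed in opposite directions after RNH1 treatment in the 2 genotypes, in both pairs of each. The difference itself was not tested. No share over all such regions of the genome stands beside the 3, so their number is not read as a result. In a GABRG3 intron, chr15:27144024-27145051, fold enrichment went from 5.26 and 6.49 to 4.57 and 5.67 in K700K and from 7.24 and 7.23 to 9.11 and 9.08 in K700E, so that the mean change differed by 2.61. In another GABRG3 intron, chr15:27264406-27266249, it went from 7.07 and 6.71 to 5.04 and 5.66 in K700K and from 4.23 and 5.23 to 7.19 and 7.28 in K700E, a difference of 4.04. In an OCA2 intron, chr15:27838157-27840047, it went from 6.26 and 5.65 to 3.86 and 5.17 in K700K and from 6.01 and 7.14 to 9.41 and 8.08 in K700E, a difference of 3.61. Fold enrichment depends on each library's own background, and no loss of hybrids can be read from it alone.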

How the results depend on the processing

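Of 114 recomputed values, 100 kept their direction and their side of the threshold or, for counts, stayed within 1.5 times. Except for the RNH1 ratio without pairing, no p-value could pass 0.05, so for tested values only the direction could change. A kept direction can go with a much smaller value: the difference in percent lost to RNH1 subtraction fell from 21.9 to 3.81 points with equal peak numbers. Taking the same number of peaks from each library reversed the log2 ratios of K700E over K700K for untreated peaks (-0.09), bona fide peaks (-0.16) and RNH1-treated peaks (-0.20), and the difference in median fold enrichment (1.38), while regions only in K700E fell to 58 and regions only in K700K rose to 71; that setting removes the weaker peaks of the longer lists. A fold enrichment of at least 4 gave a median difference of 0.224 and 42 regions only in K700E, and no subtraction gave 205. Leaving out 1 library moved regions only in K700E between 91 and 205 (205 without K700E replicate 1, 156 without K700E replicate 2), regions only in K700K between 45 and 77 (75 without K700K replicate 1, 77 without replicate 2), and the median fold enrichment difference between -0.134 and 0.0325 (the latter without K700K replicate 2); the first 2 ask for fewer libraries then. With the replicate block, the values were the same as without it (log2 ratio of untreated peaks 1.02, smallest possible p 0.5), and no call changed; without the block, the RNH1 ratio of -0.96 had an exact permutation p = 0.257. The numbers gave no sign of pairing between genotypes (correlations of -0.03 untreated and -0.05 after RNH1 treatment). They gave none between untreated and RNH1 libraries either (-0.01 in K700K and 0.08 in K700E). The pairs of the sign-flip test and of the bona fide calls rest on the labels and on the paper's description of paired samples. The SNRPN ratio, added after seeing the data with its alternatives, lay between 1.25 and 2.46. With 2 libraries a group no genotype comparison could pass a threshold of 0.05, and peaks under about 9 to 13 fragments at the summit were not listed.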
